A study of Homo sapiens with 3 samples.

Results

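The genes described here are 58 genes of the G2 phase and of mitosis, measured in HCT116 cells, an established human colon cancer cell line, after siRNA treatment against *HOXA5* short RNA, a non-coding transcript of the *HOXA5* locus. They are listed by gene name, from cyclins, mitotic kinases, checkpoint and kinetochore proteins, motors and cytokinesis factors, with no threshold on their values, but earlier results of these arrays were known when the list was drawn up. All 58 had a probe, and 57 of them were well above background on all 3 arrays, beside 12031 of the 21614 named genes with a probe. Cells of the control group received control siRNA, cells of the *HOXA5* short RNA-silenced groups received siRNA #7 or siRNA #8, all for 48 h at the same final concentration, and 400 ng of total RNA from each condition was labeled with Cy3 and hybridized to 1 array. No condition has a replicate, so ratios of single genes carry no p-value, and how precise they are is set by the number of arrays. The cells are a single line, and all 3 arrays were on the same slide and in the same scan.

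In proliferating cells, genes of G2 and mitosis are transcribed late in the cycle and are repressed in resting or arrested cells. Their promoters often carry a cell cycle genes homology region (CHR), which is bound by the MuvB core of the DREAM complex in resting cells and of the B-MYB complex in dividing cells, together with CCAAT boxes bound by NF-Y. FOXM1 joins the B-MYB complex later in the cycle. The products of these genes then act in order: cyclin A and cyclin B with CDK1 drive entry into mitosis, Aurora and Polo-like kinases build the spindle, the spindle checkpoint holds anaphase until kinetochores are attached, and the anaphase-promoting complex ends mitosis by degrading cyclin B and securin. In colon cancer cell lines they are read as markers of dividing cells.

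The siRNAs are shown because every comparison rests on them. Arrays were assigned to siRNA #7 and siRNA #8 by their sample labels; the deposited files number the siRNAs in another way, and this was not resolved. They were read from the oligonucleotide list of the study and are written 5′ to 3′, with the bases that both share in capitals.
siRNA #7: gagaAACUGAAAGACAACAUA
siRNA #8: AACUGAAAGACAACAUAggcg
Each is 21 bases long, and 17 of these bases are common, at positions 5 to 21 of siRNA #7 and 1 to 17 of siRNA #8. The siRNAs thus address overlapping sequence and are not separate tests of different target sites.

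Promoters are shown for 5 of the genes whose probes were printed 10 times on each array, so their levels are the most closely measured. These 5 range from genes that were more than 2-fold lower with siRNA #8 (*CCNA2*, *TOP2A*) to one that moved little (*CCNB1*). Where a gene had several starts, the promoter with the most of the marked letters was printed. The sequences are from RefSeq on GRCh38.p14, run from 250 bases before to 50 bases after the transcription start on the strand of the gene, and carry in capitals the CHR letters searched (TTTGAA or TTTAAA) and CCAAT, on either strand.
*CCNA2*, chr4:121823834-121824133, minus strand: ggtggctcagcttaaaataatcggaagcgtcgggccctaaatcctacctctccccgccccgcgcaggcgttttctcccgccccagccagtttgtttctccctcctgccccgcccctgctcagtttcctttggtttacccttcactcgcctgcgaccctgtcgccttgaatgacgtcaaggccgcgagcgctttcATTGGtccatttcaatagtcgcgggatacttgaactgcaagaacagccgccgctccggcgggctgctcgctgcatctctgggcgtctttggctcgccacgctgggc
*CCNB1*, chr5:69166900-69167199, plus strand: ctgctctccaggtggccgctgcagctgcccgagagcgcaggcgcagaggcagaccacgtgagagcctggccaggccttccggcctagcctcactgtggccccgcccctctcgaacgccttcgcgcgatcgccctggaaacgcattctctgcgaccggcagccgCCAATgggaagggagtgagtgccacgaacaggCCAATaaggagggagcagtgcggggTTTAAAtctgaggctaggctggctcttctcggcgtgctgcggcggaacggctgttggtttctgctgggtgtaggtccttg
*CDK1*, chr10:60778228-60778527, plus strand: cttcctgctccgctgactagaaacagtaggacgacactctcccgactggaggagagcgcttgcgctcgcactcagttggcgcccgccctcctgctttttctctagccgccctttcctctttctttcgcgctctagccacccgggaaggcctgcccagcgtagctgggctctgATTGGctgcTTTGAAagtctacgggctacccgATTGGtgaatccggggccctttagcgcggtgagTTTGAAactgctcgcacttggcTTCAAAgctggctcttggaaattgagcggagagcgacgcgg
*KIF20A*, chr5:138178862-138179161, plus strand: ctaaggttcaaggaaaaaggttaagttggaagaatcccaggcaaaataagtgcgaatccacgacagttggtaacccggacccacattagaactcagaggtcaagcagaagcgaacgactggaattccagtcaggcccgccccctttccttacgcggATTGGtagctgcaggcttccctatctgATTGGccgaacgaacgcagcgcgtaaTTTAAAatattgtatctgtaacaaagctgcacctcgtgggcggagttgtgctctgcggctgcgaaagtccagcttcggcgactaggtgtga
*TOP2A*, chr17:40417847-40418146, minus strand: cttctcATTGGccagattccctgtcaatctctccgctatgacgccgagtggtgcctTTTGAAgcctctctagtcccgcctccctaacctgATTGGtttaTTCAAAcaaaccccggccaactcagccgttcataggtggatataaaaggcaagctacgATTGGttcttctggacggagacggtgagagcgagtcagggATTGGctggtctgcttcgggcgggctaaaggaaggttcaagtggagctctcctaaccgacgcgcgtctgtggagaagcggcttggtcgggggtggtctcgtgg
At least 1 entry was found for 50 of the 58 genes, with 62 promoters in all since some genes have several starts. CHR letters were present in 46 of these 62 promoters (74.2%), against 24.0% of the 35116 promoters of all genes in the table. CCAAT was present in 41 (66.1%), against 34.6% of all promoters. Both stood in 33 promoters (53.2%), against 9.27% of all. These are matches of letters and describe sequence alone. The printed *CCNA2* promoter holds CCAAT but none of the CHR letters searched. No other spelling of the CHR was searched, so whether this promoter holds a CHR was not settled.

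The level of a gene is given as a scaled intensity, that is, the background-subtracted intensity of its brightest probe divided by the 75th percentile of the array. A log2 ratio is the difference between the log2 levels of 2 arrays. The error printed after ± is the spot-to-spot error of the ratio, a standard error. For a probe printed 10 times it comes from the probe's own spots on each array. For any other probe it comes from the pooled spread of the probes printed 10 times at a like signal. It covers spotting and scanning of 1 array and not the difference between cultures. It ranged over the mitotic genes from 0.032 to 0.27 for siRNA #7 over control siRNA and from 0.029 to 0.36 for siRNA #8 over control siRNA.

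As a check of the samples, 7 of 8 colon epithelial markers were well above background on all 3 arrays, *VIL1* on none of them. Of 8 markers of blood, vessel, stroma and liver cells, *COL1A1* alone was well above background, at an intensity between 28.2 (siRNA #7) and 48.1 (control siRNA). The probe named for *HOXA5* was at 1.61 under control siRNA, 1.25 under siRNA #7 and 1.37 under siRNA #8, with log2 ratios of −0.36 ± 0.23 for siRNA #7 and −0.23 ± 0.25 for siRNA #8. Both ratios were within 2 spot-to-spot errors of 0. Whether this probe reads *HOXA5* short RNA was not settled from the files.

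With siRNA #8, the mitotic genes were lower than with control siRNA across every role. All 57 had a log2 ratio below 0, where 49.2% of all named genes did. Their median was −0.63, against 0.0072 over all named genes. At least 1.5-fold lower were 32 of the 57 and none was as much higher, where 10.3% of all named genes were at least 1.5-fold lower and 7.79% at least 1.5-fold higher. At least 2-fold lower were 7, namely *NUF2*, *TOP2A*, *AURKB*, *CKAP2*, *ESPL1*, *CCNA2* and *ANLN*, against 3.03% of all named genes. Under normexp background correction none of these 7 stayed 2-fold lower, with ratios from −0.93 to −0.62. Normexp here adds an offset of 50 to every signal, which draws ratios of dim probes toward 0. The siRNA #8 intensities of *TOP2A* and *NUF2* were 50.3 and 59.9, near that offset. Of all named genes, 4.29% were at least 1.5-fold lower under normexp, and the share at 2-fold is not given. With the deviation of neighbouring spots removed *AURKB*, *CKAP2*, *ESPL1* and *ANLN* were under 2-fold. The ratio was below 0 by more than 2 spot-to-spot errors for 51 of the 57, against 17.2% of all named genes, and above 0 by as much for none, against 15.3%. The arrays measured RNA of whole cultures, so fewer cells in G2 or mitosis and less mRNA per cell cannot be told apart.

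With siRNA #7, the median of the same genes lay nearer to control siRNA than with siRNA #8, and more genes were lower than higher. The median was −0.17, against 0.014 over all named genes, and 39 of 57 had a ratio below 0, where 48.5% of all named genes did. At least 1.5-fold lower were 3 of the 57 (*TTK*, *PRC1* and *NCAPG*), where 6.93% of all named genes were. *NEK2* alone was at least 1.5-fold higher, where 7.56% of all named genes were. *TTK* alone was at least 2-fold lower, against 1.72% of all named genes, and no gene was 2-fold higher, against 2.04%. Beyond 2 spot-to-spot errors, 18 genes were lower (15.0% of all named genes were), 4 were higher (15.4% of all) and 35 lay within the error. Both comparisons use the same control array, so they are not independent of each other.

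The arrays of both siRNAs were also compared directly, which leaves the control array out. With siRNA #8 the median was −0.47 relative to siRNA #7, against −0.011 over all named genes, and 53 of 57 ratios were below 0, where 51.1% of all named genes were. At least 1.5-fold lower with siRNA #8 were 21 genes, where 11.6% of all named genes were, and *TTK* alone was at least 1.5-fold higher, where 8.89% of all named genes were. At least 2-fold lower were 6 genes, *TOP2A*, *NUF2*, *KIF2C*, *KIF15*, *CCNA2* and *AURKB*, against 3.35% of all named genes, and none was 2-fold higher, against 2.29%. Under normexp none of the 6 stayed 2-fold lower, with ratios from −0.89 to −0.70. With the deviation of neighbouring spots removed *NUF2* (−0.88) and *AURKB* (−0.67) were under 2-fold, and the others stayed past it. Scaling on the E1A spike-in probes, which moves all genes alike, brought *KIF2C*, *KIF15*, *CCNA2* and *AURKB* just under 2-fold (−0.99 to −0.92). Beyond 2 spot-to-spot errors, 40 genes were lower with siRNA #8, against 20.4% of all named genes, and 3 were higher (*TTK*, *CCNB1* and *BIRC5*), against 17.3%.

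**Figure D1:**
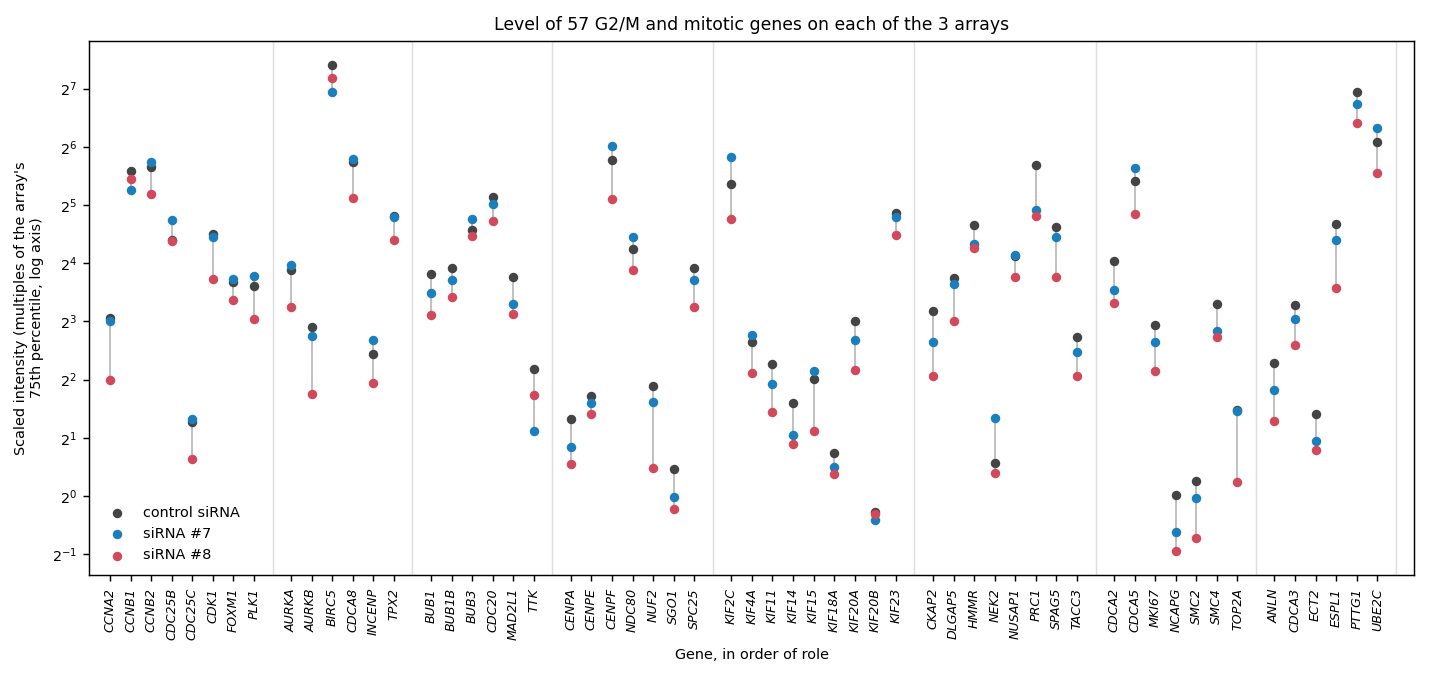
Scaled intensity of the 57 mitotic genes (vertical log axis, in multiples of the 75th percentile of the array) on the arrays of control siRNA (dark), siRNA #7 (blue) and siRNA #8 (red), ordered by role along the horizontal axis, with a line joining the 3 values of a gene. The red point is the lowest for most genes; *CCNB1*, *BIRC5*, *TTK* and *KIF20B* have their lowest value with siRNA #7.

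The cyclin-CDK switch and its regulators comprise 8 genes, with a median of 0.043 for siRNA #7, −0.52 for siRNA #8 and −0.61 for siRNA #8 over siRNA #7. *CCNA2*, cyclin A2, which acts with CDK2 and CDK1 through S phase and G2, had a scaled intensity of 8.38 under control siRNA, 8.00 under siRNA #7 and 3.96 under siRNA #8. Its level was 2.12-fold lower with siRNA #8 (log2 ratio −1.08 ± 0.041), while the ratio for siRNA #7 was −0.066 ± 0.064. In the same order of arrays, which later genes follow, *CDK1*, the kinase that drives entry into mitosis, gave 22.6, 21.9 and 13.3, and was 1.70-fold lower with siRNA #8 (−0.76 ± 0.045). Its partner *CCNB1*, cyclin B1, followed another order, with 47.9, 38.2 and 43.7. It was 1.25-fold lower with siRNA #7 (−0.33 ± 0.039) and nearer to control with siRNA #8 (−0.13 ± 0.041), so it was the higher of the pair with siRNA #8. A second *CCNB1* probe was 8.71, 7.57 and 6.74, lowest with siRNA #8, so the probes of this gene differ in the order of the siRNAs.

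*PLK1*, the Polo-like kinase of spindle assembly and mitotic entry, had scaled intensities of 12.2, 13.8 and 8.19. It was 1.49-fold lower with siRNA #8 than with control siRNA and 1.68-fold lower than with siRNA #7 (−0.75 ± 0.16), which became −0.51 once the deviation of neighbouring spots was removed. *FOXM1*, the transcription factor that raises many of these genes in G2, changed less than 1.5-fold in every comparison, at 12.9, 13.2 and 10.3. *CDC25B*, a phosphatase that activates CDK1, was nearest to control siRNA of this role with siRNA #8, at 21.1, 26.9 and 20.9. *CCNB2* and *CDC25C* had ratios of −0.46 and −0.63 with siRNA #8.

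Among the 6 genes of Aurora kinases and the chromosomal passenger complex, the median was 0.020 for siRNA #7 and −0.56 for siRNA #8. *AURKB*, the catalytic kinase of that complex, had scaled intensities of 7.45, 6.73 and 3.35 and was 2.22-fold lower with siRNA #8 (−1.15 ± 0.17). *AURKA*, which acts at the spindle poles, gave 14.7, 15.7 and 9.48, 1.55-fold lower with siRNA #8 (−0.63 ± 0.17). Its activator *TPX2* was 1.33-fold lower. *INCENP*, the scaffold of the complex, was at 5.45, 6.43 and 3.82, above control with siRNA #7 (0.24 ± 0.038) and below it with siRNA #8 (−0.51 ± 0.037). *BIRC5*, which encodes survivin, the subunit that places the complex on centromeres, gave 169.6, 123.3 and 145.5. As for *CCNB1*, its lowest array was that of siRNA #7, with a ratio of −0.46 ± 0.069 against −0.22 ± 0.092 for siRNA #8. *CDCA8*, borealin, was 1.54-fold lower with siRNA #8 and near control with siRNA #7 (0.048 ± 0.14).

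The spots of the 8 genes with probes printed 10 times were compared one by one, after outlier spots were left out. For *TOP2A*, the 9 spots with siRNA #8 ran from 1.01 to 1.29 with a median of 1.19, and the 8 spots with control siRNA from 2.62 to 3.08 with a median of 2.79. The 10 *CDK1* spots with siRNA #8 lay between 12.2 and 14.4 (median 13.4), below all 9 spots of control siRNA, from 20.02 to 25.4 (median 22.6). The siRNA #8 and control spots did not overlap for *CCNA2*, *CDK1*, *INCENP*, *CENPE*, *KIF20A* and *TOP2A*, and overlapped for *CCNB1* and *BIRC5*. For siRNA #7, the spots were apart from those of control siRNA for *CCNB1* and *KIF20A* and overlapped for the other six. How many of all probes printed 10 times have spots apart between the same arrays was not computed. The counts are therefore not read as a trait of the mitotic genes. Spots of 1 array repeat the measurement of 1 RNA and do not replicate the treatment.

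**Figure D2:**
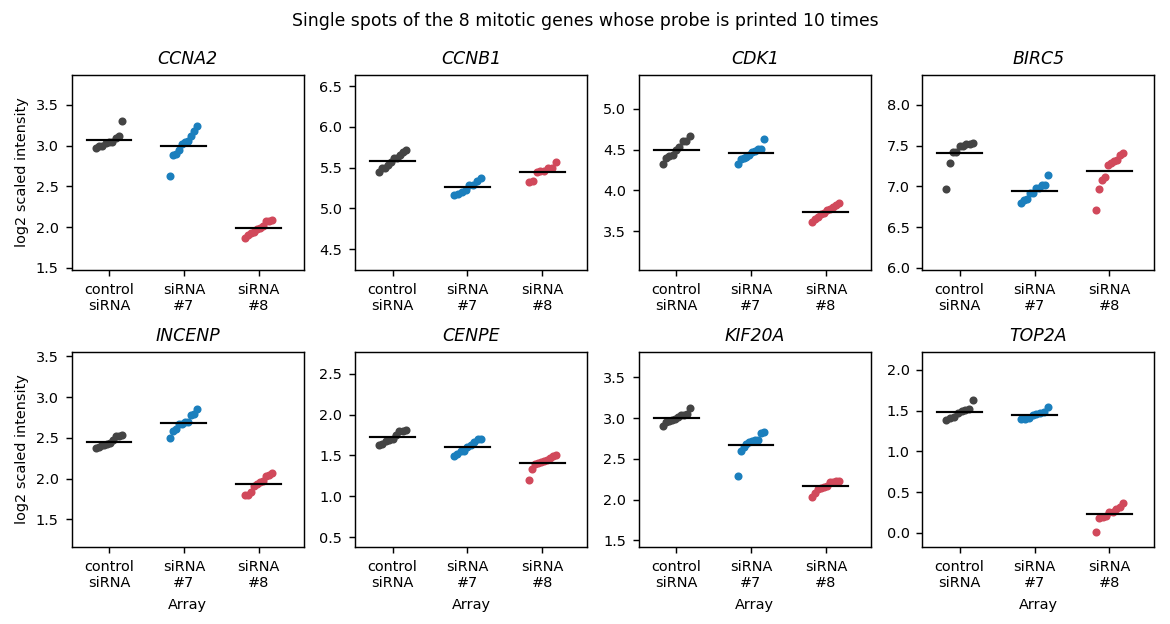
Single spots of the 8 mitotic genes whose probe is printed 10 times; the vertical axis is the log2 scaled intensity and spans the same range in every panel, each point is a spot of 1 array, placed from low to high within the array, and the bar is the mean. *TOP2A*, *CCNA2*, *CDK1* and *INCENP* have the siRNA #8 spots apart from both other arrays, whereas *BIRC5* has spots of all 3 arrays in a common range.

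Of the 6 spindle checkpoint genes, whose products hold anaphase until all kinetochores are attached, the median was −0.26 for siRNA #7, −0.46 for siRNA #8 and −0.28 between the siRNAs. *TTK*, the MPS1 kinase that starts the checkpoint, had scaled intensities of 4.52, 2.15 and 3.33. It was 2.10-fold lower with siRNA #7 (−1.07 ± 0.19), the lowest ratio of the mitotic genes in that comparison, and 1.36-fold lower with siRNA #8. With neighbouring spots removed its siRNA #7 ratio was −0.70, and its excess with siRNA #8 over siRNA #7 went from 0.63 to 0.25, below 1.5-fold. *BUB1* and *MAD2L1* were 1.63-fold and 1.56-fold lower with siRNA #8. *CDC20*, the activator of the anaphase-promoting complex that the checkpoint restrains, was 35.2, 32.3 and 26.6, less than 1.5-fold apart in any comparison. *BUB3* was close to control with siRNA #8 (−0.097 ± 0.15), while its second probe had −0.50.

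For the 7 genes of the centromere and kinetochore, the median was −0.21 for siRNA #7 and −0.68 for siRNA #8. All 7 were lower with siRNA #8 than with siRNA #7, where 51.1% of all named genes were. *NUF2*, a subunit of the NDC80 complex that binds microtubules, had the lowest ratio of the mitotic genes with siRNA #8. It was 3.71, 3.05 and 1.40, or 2.65-fold lower (−1.41 ± 0.21). Other subunits of that complex moved less, *SPC25* at −0.68 ± 0.17 and *NDC80* at −0.36 ± 0.16. *CENPF*, which associates with kinetochores in G2 and mitosis, gave 54.9, 65.0 and 34.5, and was 1.59-fold lower with siRNA #8 than with control siRNA and 1.88-fold lower than with siRNA #7. Its second probe was 1.5-fold lower in neither comparison. *CENPA*, the histone variant of centromeres, was 2.50, 1.79 and 1.46, with ratios of −0.48 ± 0.19 and −0.77 ± 0.21, and the latter became −0.56, under 1.5-fold, with neighbouring spots removed. *CENPE*, a kinetochore motor, had the smallest ratio of this role with siRNA #8 (−0.31 ± 0.037).

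Of the 9 kinesins, motors that move chromosomes and slide or depolymerise microtubules, 5 were at least 1.5-fold lower with siRNA #8 and none with siRNA #7. Of all named genes, 10.3% and 6.93% were as much lower. *KIF2C*, a microtubule depolymerase of centromeres, went from 41.2 with control siRNA to 56.7 with siRNA #7 and 26.9 with siRNA #8. Its ratios of 0.46 ± 0.14 and −0.61 ± 0.15 lay on opposite sides of 0, and it was 2.11-fold lower with siRNA #8 than with siRNA #7 (−1.07 ± 0.15). *KIF15* was 4.01, 4.44 and 2.17, a like pattern with a smaller excess in siRNA #7 (0.15 ± 0.16) and 1.85-fold lower with siRNA #8. *KIF11*, the Eg5 motor that separates spindle poles, was 4.83, 3.81 and 2.71, lower by −0.34 ± 0.16 and −0.83 ± 0.18 on the log2 scale. *KIF20A*, a motor of the central spindle in cytokinesis, was 8.02, 6.38 and 4.47, with ratios of −0.33 ± 0.052 and −0.84 ± 0.029, so the 3 arrays stood apart. *KIF14* was 1.63-fold lower with siRNA #8, which became −0.32 under normexp background correction and −0.51 with neighbouring spots removed, both under 1.5-fold. The brightest *KIF20B* probe differed from control by less than its error with either siRNA, while its second probe gave −0.45 for siRNA #7 and −0.70 for siRNA #8.

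The 8 spindle and microtubule-associated proteins had medians of −0.22 for siRNA #7 and −0.71 for siRNA #8. *PRC1*, which bundles microtubules of the central spindle, was low with either siRNA, at 51.7, 30.1 and 28.0. Its ratios were −0.78 ± 0.14 and −0.88 ± 0.15, with −0.10 ± 0.14 between the siRNAs. *CKAP2*, a microtubule-stabilising protein of the spindle, was 9.10, 6.25 and 4.19 and 2.17-fold lower with siRNA #8 (−1.12 ± 0.17), or −0.71 with neighbouring spots removed. *SPAG5*, astrin, which binds spindle microtubules and kinetochores, gave 24.6, 21.9 and 13.5, 1.81-fold lower with siRNA #8. *NEK2*, a kinase of centrosome separation, was the exception of this role. Its brightest probe was 1.47, 2.54 and 1.31, with a ratio of 0.79 ± 0.23 for siRNA #7 and −0.17 ± 0.25 for siRNA #8, whereas a second probe was 0.998, 1.09 and 0.390, with 0.13 ± 0.27 and −1.36 respectively. Both *NEK2* probes were lower with siRNA #8 than with siRNA #7, and they differ on which siRNA stands apart from control.

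Chromosome structure and cohesion had the lowest role median with siRNA #8, −0.78 over 7 measured genes, against −0.29 with siRNA #7. *TOP2A*, topoisomerase II alpha, which untangles sister chromatids, was 2.79, 2.73 and 1.18. It was 2.37-fold lower with siRNA #8 (−1.25 ± 0.043) and within its error with siRNA #7 (−0.030 ± 0.032). *MKI67*, which encodes the proliferation antigen Ki-67 of the chromosome surface, gave 7.62, 6.23 and 4.45, with ratios of −0.29 ± 0.16 and −0.78 ± 0.17. Its further probes had −0.33 and −0.84 with siRNA #8. The condensin genes *SMC2* and *NCAPG*, whose complex compacts chromosomes, were each 1.95-fold lower with siRNA #8, at 1.19, 0.970 and 0.609 for *SMC2* and at 1.01, 0.653 and 0.518 for *NCAPG*. *NCAPG* was also 1.55-fold lower with siRNA #7 (−0.63 ± 0.27). These dim probes lost their 1.5-fold differences under normexp background correction, with −0.48 for *SMC2* and −0.36 for *NCAPG* with siRNA #8, and −0.23 for *NCAPG* with siRNA #7. The condensin gene *SMC4* was 1.48-fold lower with siRNA #8, and its second probe had −1.38.

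*CDCA5*, sororin, which keeps sister chromatids joined, was 42.4, 49.8 and 28.6, 1.48-fold lower with siRNA #8 than with control siRNA and 1.74-fold lower than with siRNA #7. *NCAPH*, a further condensin gene, was the member without a ratio for siRNA #8. Its scaled intensity was 0.162 with control siRNA and 0.210 with siRNA #7, where it was well above background, and 0.0487 with siRNA #8, where it was not. It was at least 1.29-fold lower with siRNA #8 than with siRNA #7, taking as the limit the lowest level at which a probe was detected on the siRNA #8 array, and no such limit could be set against control siRNA.

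In the 6 genes of anaphase, mitotic exit and cytokinesis, the median was −0.26 for siRNA #7 and −0.65 for siRNA #8. *ESPL1*, separase, the protease that opens cohesin at anaphase, was 25.5, 21.0 and 11.9, 2.13-fold lower with siRNA #8 (−1.09 ± 0.16). *ANLN*, anillin of the contractile ring, was 4.87, 3.54 and 2.43, 1.38-fold lower with siRNA #7 and just over 2-fold lower with siRNA #8 (−1.001 ± 0.21). *UBE2C*, the ubiquitin-conjugating enzyme of the anaphase-promoting complex, was 67.5, 79.7 and 46.7, 1.71-fold lower with siRNA #8 than with siRNA #7. *PTTG1*, securin, which inhibits separase, was 1.45-fold lower with siRNA #8, and *ECT2* and *CDCA3* were 1.54-fold and 1.60-fold lower.

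**Figure D3:**
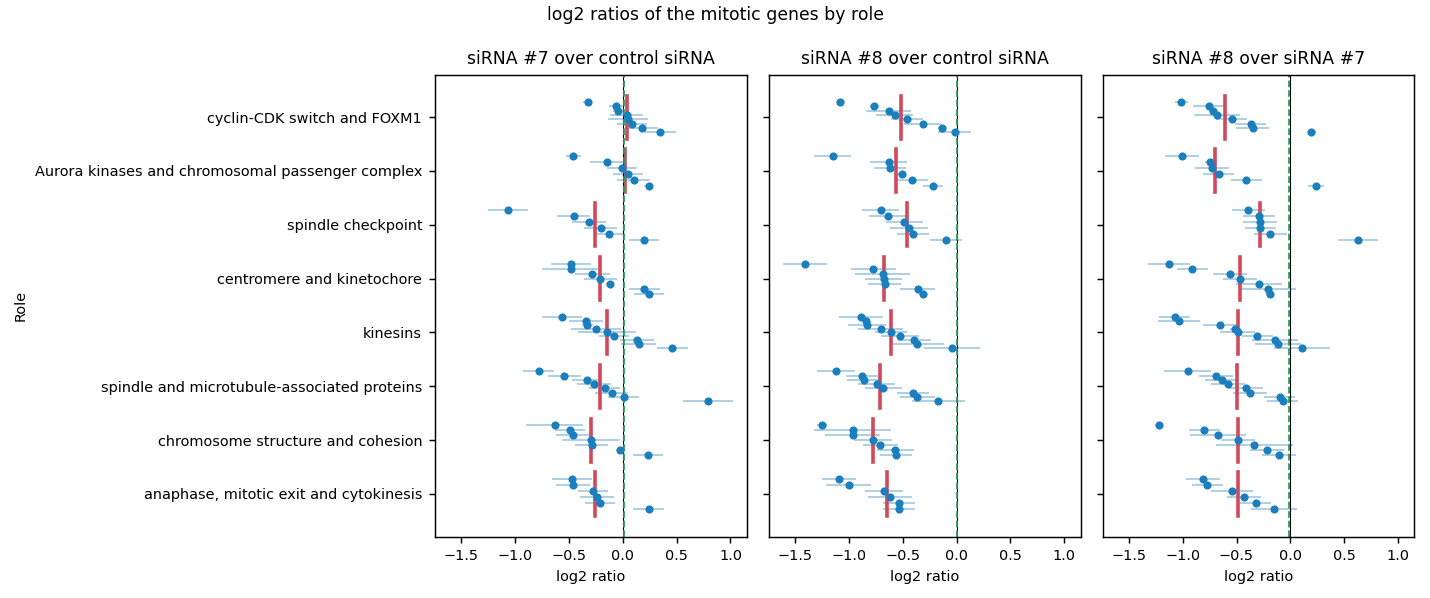
Log2 ratios of the 57 mitotic genes (horizontal axis) by role (vertical axis) for siRNA #7 over control siRNA, siRNA #8 over control siRNA and siRNA #8 over siRNA #7; points are genes, bars are ± 1 spot-to-spot error, red lines are role medians and the dashed line is the median of all named genes. For siRNA #8 over control siRNA every point lies left of 0 and the role medians run from −0.78 to −0.46, whereas for siRNA #7 they run from −0.29 to 0.043.

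Probes other than the brightest gave a further reading of 11 of these genes, 12 probes in all. With siRNA #8 over control siRNA, all 12 had a ratio below 0, where 50% of the second brightest probes of all named genes did. The median of the 12 was −0.53, against −0.53 for the brightest probes of the same genes. With siRNA #8 over siRNA #7 all 12 were below 0 as well (median −0.41, against −0.49 for the brightest probes). Of the second brightest probes of all named genes, 50.5% were. With siRNA #7 over control siRNA, 7 of 12 were below 0, with a median of −0.040. This count was near the 49.4% of the second brightest probes of all named genes.

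Where both siRNA arrays were joined as 1 silenced group of 2 and compared with the control array in limma, a fit with 1 residual degree of freedom, no mitotic gene passed. The adjusted p was 0.999785 for each of the 57 genes (Benjamini-Hochberg over 18121 probes), and 1 of all probes passed (0.00552%), with a higher level after silencing. At an unadjusted p under 0.05, 1 gene was lower, *PRC1* (log2 ratio −0.83 ± 0.32, standard error of the limma fit), and none was higher, where 1.14% of all probes were lower and 2.50% higher. The median fitted log2 ratio of the mitotic genes was −0.37. It was −0.39 after quantile normalization and −0.33 after normexp background correction. This fit takes siRNAs of overlapping sequence as replicates and assumes that the lone control array varies as they do.

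Genes of known roles around the mitotic genes were read in the same way. Of 39 further mitotic genes, 36 were measured, with medians of −0.16, −0.74 and −0.68 for siRNA #7, siRNA #8 and siRNA #8 over siRNA #7. With siRNA #8, 34 of these 36 were below control and 25 at least 1.5-fold lower, where 49.2% and 10.3% of all named genes were. The largest ratios in any of the 3 comparisons were those of *CENPW*, a centromere protein, at 11.8, 10.5 and 3.39, of *CEP55*, which recruits the abscission machinery, with ratios of −0.33 ± 0.045 and −1.53 ± 0.058, and of *MIS18A*, which prepares centromeres for new CENP-A. *MIS18A* had 17.8, 5.25 and 16.02, with ratios of −1.76 ± 0.14 for siRNA #7 and −0.15 ± 0.16 for siRNA #8, an order like that of *TTK*.

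For 34 genes of DNA replication, which act in the preceding S phase, the medians were −0.14, −0.61 and −0.41. All 34 were below control siRNA with siRNA #8, and 19 were at least 1.5-fold lower, beside the same shares of all named genes. *GINS3*, a subunit of the replicative helicase, was 14.0, 23.8 and 6.82, higher with siRNA #7 (0.77 ± 0.15) and lower with siRNA #8 (−1.03 ± 0.17), where removal of the deviation of neighbouring spots left −0.30, under 1.5-fold. *CDC6*, which loads that helicase, was 0.632, 0.291 and 0.229, low with either siRNA, and *CDC45*, a further part of the helicase, was 29.8, 28.2 and 11.9.

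The anaphase-promoting complex, whose subunits are needed outside mitosis too, had medians of 0.18, 0.048 and −0.045 over 15 genes. No gene of the complex was 1.5-fold lower in any comparison, where 6.93%, 10.3% and 11.6% of all named genes were. *CDC26*, one of its subunits, was 7.72, 9.12 and 17.1, 1.15 higher on the log2 scale with siRNA #8. *ANAPC7*, a further subunit, was 0.268, 0.564 and 1.049 on a dim probe (1.97 ± 0.40 with siRNA #8), and *FZR1*, which activates the complex after mitosis, had 4.26, 6.15 and 5.82. The 17 genes listed with the DREAM, MuvB, B-MYB and NF-Y factors, which include *RB1* and *CDKN1A*, had medians of −0.16, −0.068 and 0.10. With siRNA #8, 4 of the 17 were at least 1.5-fold lower, where 10.3% of all named genes were. Among the 17, *LIN54*, the MuvB subunit that binds the CHR, was 1.90, 1.72 and 0.881 (−1.11 ± 0.26 with siRNA #8). *RBL1*, which encodes p107, had 1.08, 0.799 and 0.594. *E2F5*, a repressive E2F factor, had 0.487, 0.799 and 0.896, higher with either siRNA.

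**Figure D4:**
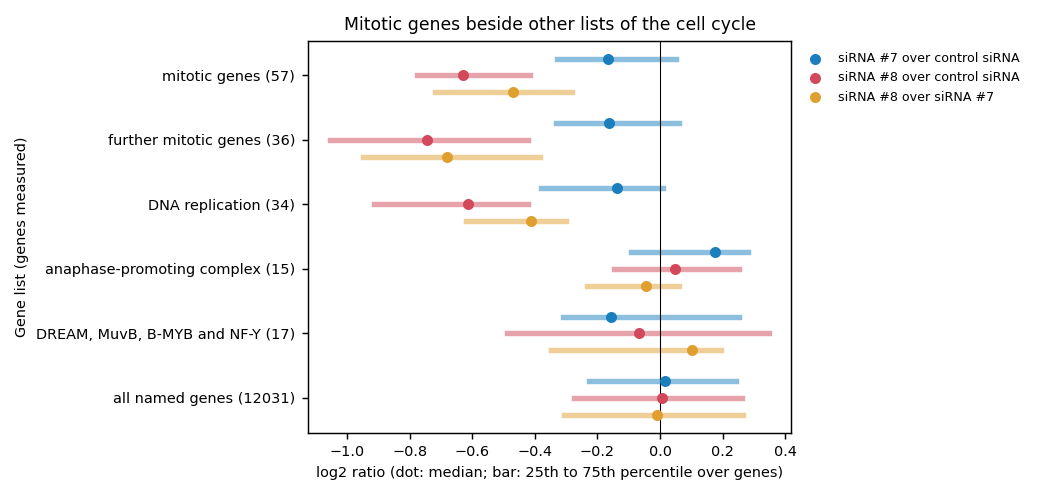
Median log2 ratio (dot, horizontal axis) and 25th to 75th percentile over genes (bar) of the mitotic genes, of 4 other lists of the cell cycle and of all named genes (vertical axis, number of measured genes in brackets). For siRNA #8 over control siRNA (red) the mitotic genes (−0.63), further mitotic genes (−0.74) and DNA replication genes (−0.61) lie left of 0, and the anaphase-promoting complex (0.048) and all named genes (0.0072) near it.

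The mitotic genes were also set by the letters of their promoters, for the 49 with both a promoter entry and a ratio. The 30 genes with CHR letters and CCAAT had a median of −0.62 with siRNA #8, the 11 with CHR letters alone −0.86, the 5 with CCAAT alone −0.70 and the 3 with neither −0.68. With siRNA #7 the same groups had −0.18, −0.21, −0.15 and −0.26. In every group the median was lower with siRNA #8, including the genes in whose windows neither set of letters was found, *CDCA5*, *CKAP2* and *TACC3*.

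**Figure D5:**
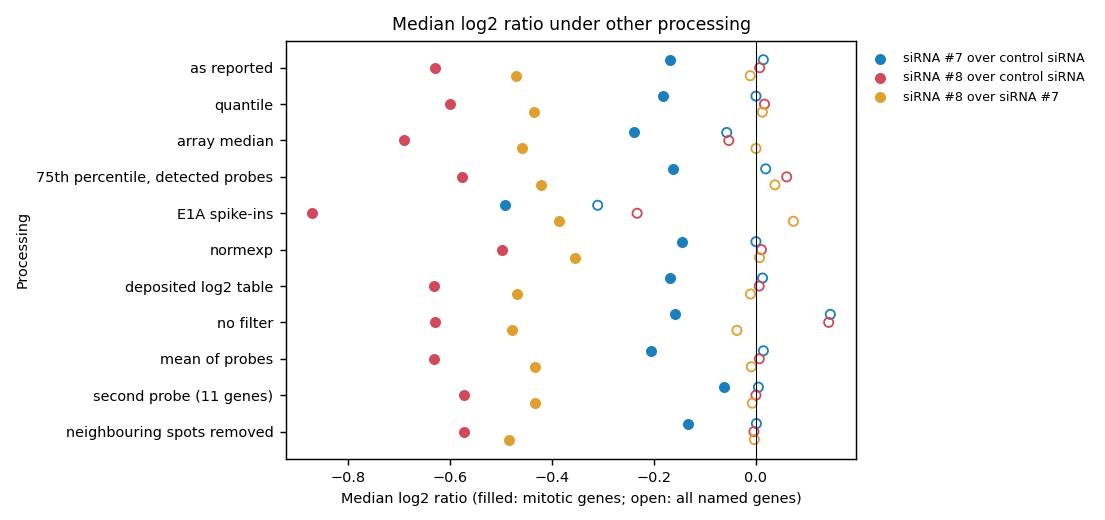
Median log2 ratio (horizontal axis) of the mitotic genes (filled) and of all named genes (open) under the processing used in the text and 10 alternatives (vertical axis), in blue for siRNA #7 over control siRNA, red for siRNA #8 over control siRNA and yellow for siRNA #8 over siRNA #7. The filled red points run from −0.87 to −0.50, and scaling on the E1A spike-in probes moves the open points as well, to −0.31 for siRNA #7 and −0.23 for siRNA #8.

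The order of the siRNAs held under the other settings shown in the plot of medians by processing. Under each of them the median of the mitotic genes was lower with siRNA #8 than with siRNA #7, with −0.48 to −0.35 for the direct ratio. Array-median, detected-probe and E1A scaling and the deposited log2 table change every ratio of a comparison by the same amount. Under these the median minus that of all named genes stays at −0.18 for siRNA #7 and −0.64 for siRNA #8. They therefore do not test the mitotic genes against other genes. Scaling on the E1A spike-in probes, in place of the 75th percentile, moved the siRNA #7 median to −0.49 and its number of genes at least 1.5-fold lower from 3 to 23, where 22.5% of all named genes were then as much lower. Normexp background correction brought the following genes under 1.5-fold with siRNA #8: *AURKA* (−0.51), *MKI67* (−0.52), *KIF2C* (−0.50), *CDC25C* (−0.38), *ECT2* (−0.43), *CDCA3* (−0.56), *CDCA8* (−0.58), *SPC25* (−0.56), *SGO1* (−0.41), *TACC3* (−0.42), *KIF14*, *SMC2* and *NCAPG*. Removal of the deviation of neighbouring spots did so for *CENPA*, *CENPF*, *KIF2C*, *KIF14*, *MAD2L1*, *SGO1* and *TACC3*. Normexp also moved *NUF2*, *TOP2A* and *ESPL1* to −0.93, −0.74 and −0.62. Of all named genes, 4.29% were at least 1.5-fold lower with siRNA #8 under normexp, against 10.3% under the main processing.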

How the data were processed

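RNA of the 3 conditions was measured on 1-colour Agilent arrays of 62976 spots. Per the file headers, the deposited values are spot intensities from Agilent Feature Extraction 11.5.1.1, background-subtracted and not scaled between arrays. The authors also deposited log2 values of 21189 probes, each centred on its median over the arrays (median 0 of each column), and used here as an alternative.

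In Python 3.11.15 (numpy 2.4.6, pandas 2.3.3, scipy 1.17.1), spots flagged as outliers were left out (313 to 413 per array), spots of a probe were averaged on the log2 scale, and the 75th percentile of the gene probes was subtracted. Probes had to be well above background in at least 50% of their spots on all 3 arrays (18121 probes). The brightest probe of a gene was used. Symbols came from RefSeq accessions of GRCh38.p14; the array was annotated on another build, so no probe positions are given. Calls were 1.5-fold or 2-fold, the fit was limma 3.58.1 in R 4.3.3, and the steps were tested on simulated data. Levels on all 3 arrays were given for 11 routine G2/M markers, the 25 genes with the largest ratios, dim genes and *CDC25B*. Some other members were named with ratios or folds. For other lists, the 3 genes with the largest ratios were named.

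The genes and lists were chosen with earlier results of these data known. The 10 alternatives were quantile, array median, E1A and detected-probe scaling, normexp (offset 50), the deposited log2 table, no dim-probe filter, probe means, second probes, and removal of the median deviation of neighbours within 3 rows and 3 columns. Normexp used median spot signals.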

Additional observations from a re-analysis of the deposited data

Results flagged for a closer look

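*INCENP* and *KIF2C* stood above control siRNA with siRNA #7 and below it with siRNA #8, each by more than 2 spot-to-spot errors. The log2 ratio of siRNA #8 over siRNA #7 was −0.75 for *INCENP*, whose value rests on 10 spots per array, and −1.07 for *KIF2C*, whose value rests on 1 spot. With 1 array per siRNA the difference was not tested.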

How the results depend on the processing

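Over the 10 alternatives no median of the mitotic genes changed sign. Of these, array-median, detected-probe and E1A scaling and the deposited log2 table move all genes alike. With siRNA #8, 55 to 57 of 57 genes were below 0 under the alternatives that give the same 57, while the share of all named genes below 0 ran from 43.8% (detected-probe scaling) to 73.2% (E1A scaling). E1A scaling moved the siRNA #7 median to −0.49 and the genes at least 1.5-fold lower to 23 (siRNA #7) and 49 (siRNA #8), where 22.5% and 20.6% of all named genes were then as much lower. The array median gave 5 genes of 57 for siRNA #7, beside 9.15% of all named genes. Normexp gave 20 for siRNA #8 and 11 for siRNA #8 over siRNA #7, beside 4.29% and 4.67% of all named genes. Among 11 second probes, 1, 5 and 4 were at least 1.5-fold lower for siRNA #7, siRNA #8 and siRNA #8 over siRNA #7. Of the second probes of all named genes, 8.59%, 10.2% and 11% were as much lower, so the siRNA #7 count was near that share. At 2-fold, 1, 7 and 6 genes were lower, where 1.72%, 3.03% and 3.35% of all named genes were. The siRNA #7 count was thus near that share. Under normexp none of the 7 and none of the 6 stayed past 2-fold, and the share of all named genes there is not given. Where genes past 1.5-fold were recomputed 1 by 1, no ratio reversed. E1A and array-median scaling change every ratio of a comparison by the same amount. Under both, the median minus that of all named genes stayed at −0.18 for siRNA #7 and −0.64 for siRNA #8. Normexp adds an offset to every signal, which draws ratios of dim probes toward 0. How far this offset accounts for the normexp shifts was not tested, nor was the cause of the shifts under the remaining settings. The limma count stayed at 0 of 57 under quantile and normexp. No paired analysis was possible because control siRNA, siRNA #7 and siRNA #8 have 1 array each. Dim probes (*NCAPG*, *SMC2*, *KIF20B*, *SGO1*) have the largest errors, and with 1 array per condition the spread between cultures is unknown.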
